A study of Arabidopsis thaliana with 12 samples.

Results

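The auxin Aux/IAA and ARF gene families of Arabidopsis thaliana are described here in leaves and guard cells treated with abscisic acid (ABA), the hormone that closes stomata under drought. The genes were taken from a fixed list of 43 locus identifiers, 28 for Aux/IAA genes and 15 for ARF genes, and all 43 were found among the 36796 loci counted. Read counts were high enough for a test in 39 of them, 24 Aux/IAA and all 15 ARF genes. All plants were of accession Col-0, 5 to 6 weeks old, and rosettes had been sprayed with 50 µM ABA or with its ethanol vehicle (control) 4 h before harvest. The 6 groups, each with n = 2 biological replicates, were wild-type guard cell preparations with ABA and at control, whole leaves of the abf1/2/3/4 mutant with ABA and at control, and wild-type whole leaves with ABA and at control. The mutant is altered in 4 genes for ABA-responsive element binding factors, ABF1 to ABF4, and its alleles are not given in the sources used here. The guard cell material consisted of epidermal fragments isolated from leaves, with RNA from another kit than the leaf RNA, so cell type, isolation and kit cannot be told apart between guard cells and leaves.

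Aux/IAA proteins are short-lived repressors that bind ARF transcription factors at auxin-responsive promoters. Auxin acts as a glue between a degron in the Aux/IAA protein and an F-box receptor of the TIR1/AFB family, which sends the repressor to the proteasome and frees the ARF. Most Aux/IAA genes are themselves auxin targets, so the family is both a brake and a readout. IAA20, IAA30, IAA31, IAA32, IAA33 and IAA34 encode proteins without the canonical degron. ARF5, ARF6, ARF7, ARF8 and ARF19 activate transcription, and the other ARF proteins are mostly regarded as repressors. Several ARF transcripts are cut by small RNAs: miR160 acts on ARF10, ARF16 and ARF17, miR167 on ARF6 and ARF8, and trans-acting small RNAs from TAS3 on ARF2, ARF3 and ARF4.

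The sequences below show what some of the members most moved by ABA carry in front of their genes, because bZIP factors such as the ABFs bind an ACGTG core and ARF proteins bind TGTCTC. Each is the 250 bases before the annotated gene start, read 5′ to 3′ on the gene's strand from the RefSeq assembly TAIR10.1, and capitals mark ACGTG or TGTCTC on either strand. IAA14 and IAA7 are a pair of close relatives, and IAA27 had the lowest ABA to control ratio of the tested members in wild-type leaves. In order, the windows lie at chr4:8350264-8350513 on the minus strand, chr3:8194356-8194605 on the plus strand and chr4:14325362-14325611 on the minus strand, and none of the 3 holds another annotated locus.
IAA14: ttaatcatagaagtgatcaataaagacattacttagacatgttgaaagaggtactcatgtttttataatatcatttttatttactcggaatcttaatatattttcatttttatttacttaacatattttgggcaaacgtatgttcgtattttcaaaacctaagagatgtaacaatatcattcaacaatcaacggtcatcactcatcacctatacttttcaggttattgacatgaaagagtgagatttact
IAA7: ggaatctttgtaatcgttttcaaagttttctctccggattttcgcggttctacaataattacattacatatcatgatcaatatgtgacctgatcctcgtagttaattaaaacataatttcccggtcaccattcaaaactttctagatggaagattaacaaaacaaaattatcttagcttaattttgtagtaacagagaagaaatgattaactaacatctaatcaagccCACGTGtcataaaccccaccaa
IAA27: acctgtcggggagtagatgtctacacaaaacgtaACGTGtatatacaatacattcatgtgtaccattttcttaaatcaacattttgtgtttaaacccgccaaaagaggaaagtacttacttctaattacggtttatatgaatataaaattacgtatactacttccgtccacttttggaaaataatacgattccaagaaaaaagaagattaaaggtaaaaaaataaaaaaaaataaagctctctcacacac
The window of IAA14 held neither motif. That of IAA7 held the palindrome CACGTG, which contains ACGTG on both strands, 22 to 17 bases before the start, and that of IAA27 held ACGTG 216 to 212 bases before it. Searched on both strands, ACGTG stood in the windows of 11 of the 43 members and in 22.9% of 27443 promoters of the same length. CACGTG stood in 4 members and in 6.49% of promoters. TGTCTC stood in 10 members and in 10.9% of promoters. Members with ACGTG included genes that were higher with ABA, such as IAA28 and ARF5, and genes that were lower, such as IAA7, IAA27 and ARF4.

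Libraries held 25294558 to 47116819 counts, and levels are given as cpm, the count of a gene divided by the scaled library total and set to a common size. The labels were checked against marker genes. ABF1, ABF2, ABF3 and ABF4 of the mutant control leaves lay below those of the wild-type controls by 0.84, 1.13, 2.80 and 3.70 on the log2 scale (adjusted p = 2.51e-04, 1.69e-05, 4.43e-07 and 4.92e-09 by edgeR's quasi-likelihood test). All 5 guard cell markers were higher in guard cell than in wild-type leaf controls, with a summed level of 1102 to 1157 cpm against 95.5 to 114.1 cpm. The 9 vasculature markers together had 4255 to 4352 cpm in guard cell controls and 1122 to 1149 cpm in wild-type leaf controls, 8 of the 9 were higher there, and none was at 0. The sucrose carrier gene SUC2 of phloem companion cells had 2660 and 2520 cpm in guard cell controls, against 367 and 354 cpm in wild-type leaf controls. The 5 mesophyll markers together had 11280 to 11320 cpm in guard cell controls and 27530 to 28760 cpm in wild-type leaf controls. The 4 epidermis markers together had 533.0 to 589.7 cpm in guard cell controls and 300.1 to 315.9 cpm in wild-type leaf controls. Of these 4 markers, 1 was called higher in guard cell controls and 1 lower. The preparations thus held RNA of several cell types. With ABA the summed guard cell markers stood at 356.2 to 375.7 cpm in guard cell preparations, and 4 of the 5 fell while KAT1 rose. Summed vasculature markers stood at 4916 to 5027 cpm there (4 of the 9 rose and 5 fell). Summed mesophyll markers stood at 10330 to 10890 cpm (1 of the 5 rose and 1 fell), and summed epidermis markers at 451.6 to 456.4 cpm (1 of the 4 rose and 2 fell). Guard cells, where named below as a material, means these mixed preparations. In such bulk RNA, fewer cells of a type and less RNA per cell cannot be told apart.

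Aux/IAA and ARF levels were first set beside each other per kilobase of exon, which takes out gene length. In guard cell controls IAA9 stood highest with 95.5 ± 5.43 cpm per kb (SD, n = 2 here and for all means), ahead of IAA16 with 61.9 ± 1.84 and ARF2 with 52.7 ± 0.578. IAA26, the Aux/IAA protein also known as PAP1, came next with 43.8 ± 0.336 cpm per kb. In wild-type leaf controls ARF2, a repressor that limits growth and promotes leaf ageing, stood highest with 86.8 ± 1.53 cpm per kb. IAA9 followed with 79.4 ± 1.21, IAA16 with 60.7 ± 7.0 and IAA7 (AXR2) with 53.5 ± 0.315 cpm per kb. The gaps among these 4 leaf genes exceeded the summed SDs of neighbours except between IAA16 and IAA7, whose gap was smaller than that sum. ARF2 made up 39.8% of the summed ARF level per kb in wild-type leaf controls and 27.9% in guard cell controls.

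At the low end, IAA20, IAA31, IAA33 and IAA34 were near the limit of detection. IAA20 reached at most 7 counts in any library, IAA31 and IAA33 at most 2, and IAA34 at most 9, and these 4 were not tested. All 4 belong to the degron-less branch, so of its 6 members IAA30 and IAA32 alone could be followed. IAA14 and IAA6 were also low at control, at 0.428 ± 0.0543 and 0.464 ± 0.0487 cpm per kb in guard cells.

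**Figure D1:**
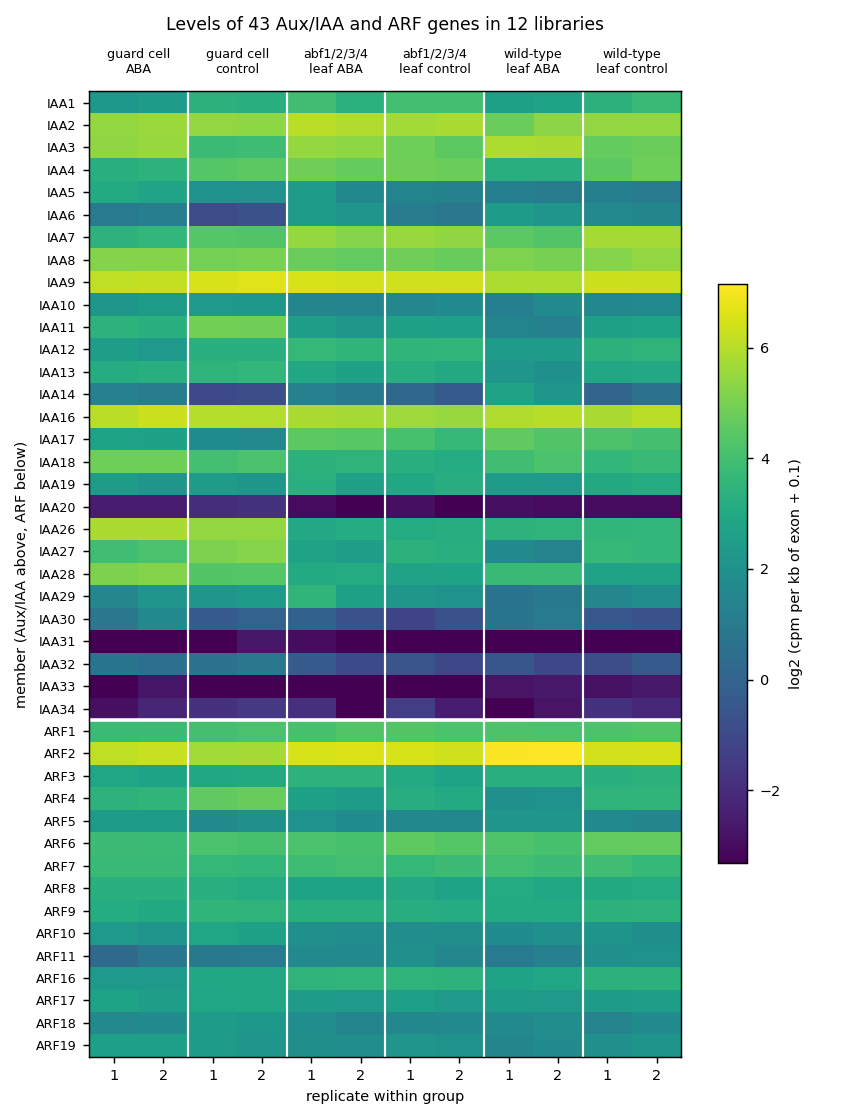
Levels of the 43 genes (rows, Aux/IAA above the white line and ARF below it) in the 12 libraries (columns, 2 replicates in each of 6 groups), as the log2 of cpm per kb of exon plus 0.1. The rows of IAA20, IAA31, IAA33 and IAA34 are dark in every library, while IAA9, IAA16 and ARF2 are bright in all.

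The summed Aux/IAA level was similar with and without ABA in guard cells and lower with ABA in wild-type leaves. It was 833.1 and 886.3 cpm in guard cells with ABA, against 845.3 and 868.4 cpm at control. In mutant leaves it was 824.6 and 743.3 cpm with ABA, against 736.6 and 708.9 cpm at control, and in wild-type leaves 647.7 and 659.1 cpm with ABA, against 758.1 and 803.2 cpm at control. The ABA and control libraries did not overlap in either leaf genotype and did overlap in guard cells. The summed ARF level was 642.6 and 664.1 cpm in guard cells with ABA, against 653.1 and 655.9 cpm at control, and 738.7 and 758.5 cpm in mutant leaves with ABA, against 766.1 and 706.5 cpm at control, and the libraries overlapped in both. In wild-type leaves it was 891.5 and 905.0 cpm with ABA, against 768.1 and 780.0 cpm at control, with no overlap. These sums hide genes that moved in opposite directions.

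With ABA, guard cell preparations held more RNA of the repressor genes IAA14, IAA6, IAA3, IAA30 and IAA17 and less of IAA11, ARF4, IAA27, IAA4 and IAA1. Of the 39 tested members 28 passed the test in guard cells, 12 higher and 16 lower, which is 71.8% beside a background of 57.5% of all 22341 tested loci (29.0% higher and 28.5% lower). The median log2 fold change was -0.10 over the members and -0.02 over all loci. With total-count scaling 9 were higher and 19 lower, beside 3881 and 10860 of all 22341 loci. By family, 9 of 24 tested Aux/IAA genes rose and 8 fell, and 3 of 15 ARF genes rose and 8 fell. A gene passed at an adjusted p under 0.05, with p-values adjusted over all tested loci. Since most loci passed, the count of members says little by itself, and their sizes and directions follow.

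IAA14 (SOLITARY ROOT, AT4G14550, chromosome 4, 8347822 to 8350263), which blocks lateral root initiation when stabilised, had 4.22 and 3.94 cpm in guard cells with ABA, against 0.735 and 0.880 cpm at control. In wild-type leaves it had 12.0 and 8.22 cpm with ABA, against 1.81 and 2.62 cpm at control. Both ABA libraries lay above both control libraries in each material, and the log2 fold change was 2.33 ± 0.30 in guard cells (SE, adjusted p = 5.86e-05, edgeR) and 2.18 ± 0.24 in wild-type leaves (adjusted p = 1.50e-05). Its close relative IAA7 (AT3G23050, chromosome 3, 8194606 to 8197161) went the other way. IAA7 had 20.4 and 22.8 cpm in guard cells with ABA, against 39.8 and 37.1 cpm at control. It had 43.2 and 37.3 cpm in wild-type leaves with ABA, against 102 cpm in each control library. The libraries were again apart, with log2 fold changes of -0.83 ± 0.10 (adjusted p = 4.34e-05) and -1.34 ± 0.10 (adjusted p = 5.73e-07).

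The pair IAA3 and IAA4, also close relatives, was split in the same manner. IAA3 (SHY2, AT1G04240), a repressor that sets the size of the root meristem, had 56.8 and 63.0 cpm in guard cells with ABA, against 18.8 and 19.7 cpm at control. The wild-type leaves had 79.3 and 76.0 cpm of IAA3 with ABA, against 34.7 and 37.2 cpm at control. The ABA libraries stood above the controls in both materials, with log2 fold changes of 1.64 ± 0.10 (adjusted p = 1.72e-07) and 1.11 ± 0.10 (adjusted p = 2.17e-06). Of the exon bases of IAA3, 39.6% overlap AT1G04230 on the opposite strand, which rose too (1.23 in guard cells, adjusted p = 5.23e-07), and the library kit does not mark strand, so the reads of these neighbours cannot be told apart there. IAA4 had 12.9 and 14.5 cpm in guard cells with ABA, against 28.4 and 30.4 cpm at control. It had 12.6 and 13.0 cpm in wild-type leaves with ABA, against 30.8 and 38.3 cpm at control. Every ABA library was below every control library, with log2 fold changes of -1.10 ± 0.12 (adjusted p = 1.31e-05) and -1.43 ± 0.12 (adjusted p = 1.14e-06).

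Of the other Aux/IAA genes that rose in guard cells, IAA6 (SHY1) was low and IAA30 lacks the degron. IAA6 had 1.59 and 1.81 cpm in guard cells with ABA, against 0.368 and 0.427 cpm at control, and 4.45 and 3.67 cpm in wild-type leaves with ABA, against 2.50 and 2.33 cpm at control. IAA30 had 1.67 and 3.04 cpm in guard cells with ABA, against 0.705 and 0.880 cpm at control, and 1.57 and 1.80 cpm in wild-type leaves with ABA, against 0.611 and 0.520 cpm at control. Neither gene had overlapping libraries; the log2 fold change of IAA6 was 2.08 ± 0.25 in guard cells and 0.74 ± 0.17 in wild-type leaves, and that of IAA30 was 1.55 ± 0.33 and 1.58 ± 0.34 (adjusted p = 3.73e-05, 0.00322, 0.00199 and 0.00205). IAA28, a repressor of lateral root founder cells, had 46.5 and 50.7 cpm in guard cells with ABA, against 28.0 and 28.9 cpm at control. The wild-type leaves had 18.9 and 18.8 cpm with ABA, against 9.03 and 8.81 cpm at control, a log2 fold change of 1.08 ± 0.07 (adjusted p = 3.29e-07). IAA17 (AXR3) had 8.70 and 8.16 cpm in guard cells with ABA, against 4.35 and 3.89 cpm at control. It passed in guard cells (1.03 ± 0.18, adjusted p = 4.55e-04, edgeR) and not in wild-type leaves (0.31 ± 0.14, adjusted p = 0.0805), but the difference of these responses did not pass (0.73 ± 0.23, adjusted p = 0.0531). IAA17 also rose in mutant leaves (0.56 ± 0.14, adjusted p = 0.0113). That call was lost without mutant control replicate 2, without mutant ABA replicate 1 and with only the mutant libraries.

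Of the genes that fell, IAA27 had the lowest ratio in wild-type leaves. IAA27 (PAP2, AT4G29080, chromosome 4, 14323296 to 14325361) had 21.6 and 25.0 cpm in guard cells with ABA, against 48.4 and 54.1 cpm at control. In wild-type leaves it had 4.31 and 3.55 cpm with ABA, against 18.2 and 17.5 cpm at control. No library overlapped between ABA and control, and the log2 fold changes were -1.14 ± 0.11 (adjusted p = 4.74e-06) and -2.20 ± 0.13 (adjusted p = 8.29e-08). IAA11 had 13.6 and 12.4 cpm in guard cells with ABA, against 37.9 and 36.8 cpm at control. It had 3.2 and 2.94 cpm in wild-type leaves with ABA, against 7.61 and 8.39 cpm at control. The fall of IAA11 was of similar size in both materials, with log2 fold changes of -1.52 ± 0.10 (adjusted p = 3.97e-07) and -1.39 ± 0.12 (adjusted p = 2.50e-06). IAA1, a neighbour of IAA14 on chromosome 4, had 4.48 and 5.12 cpm in guard cells with ABA, against 9.81 and 8.96 cpm at control. The wild-type leaves had 5.77 and 6.18 cpm with ABA, against 9.86 and 12.3 cpm at control, and its log2 fold changes were -0.97 ± 0.19 and -0.89 ± 0.18 (adjusted p = 0.00108 in each).

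ARF4, which with ARF3 sets the lower side of the leaf, was the ARF gene with the lowest ratio. ARF4 (AT5G60450, chromosome 5, 24308255 to 24312784) had 35.4 and 37.5 cpm in guard cells with ABA, against 77.4 and 84.0 cpm at control. In wild-type leaves it had 12.1 and 13.1 cpm with ABA, against 36.7 and 37.3 cpm at control. ARF4 fell in both, with log2 fold changes of -1.15 ± 0.09 (adjusted p = 7.83e-07) and -1.55 ± 0.09 (adjusted p = 1.03e-07). ARF2, the most abundant ARF, had 269 and 295 cpm in guard cells with ABA, against 202 and 205 cpm at control. In wild-type leaves it had 520 and 546 cpm with ABA, against 332 and 340 cpm at control, a log2 fold change of 0.67 ± 0.08 (adjusted p = 1.74e-05). The guard cell value was 0.47 ± 0.08 (adjusted p = 3.17e-04), and 0.17 without a pass with total-count scaling. In wild-type leaves with ABA, ARF2 made up 56.0% of the summed ARF level per kb, against 39.8% at control.

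**Figure D2:**
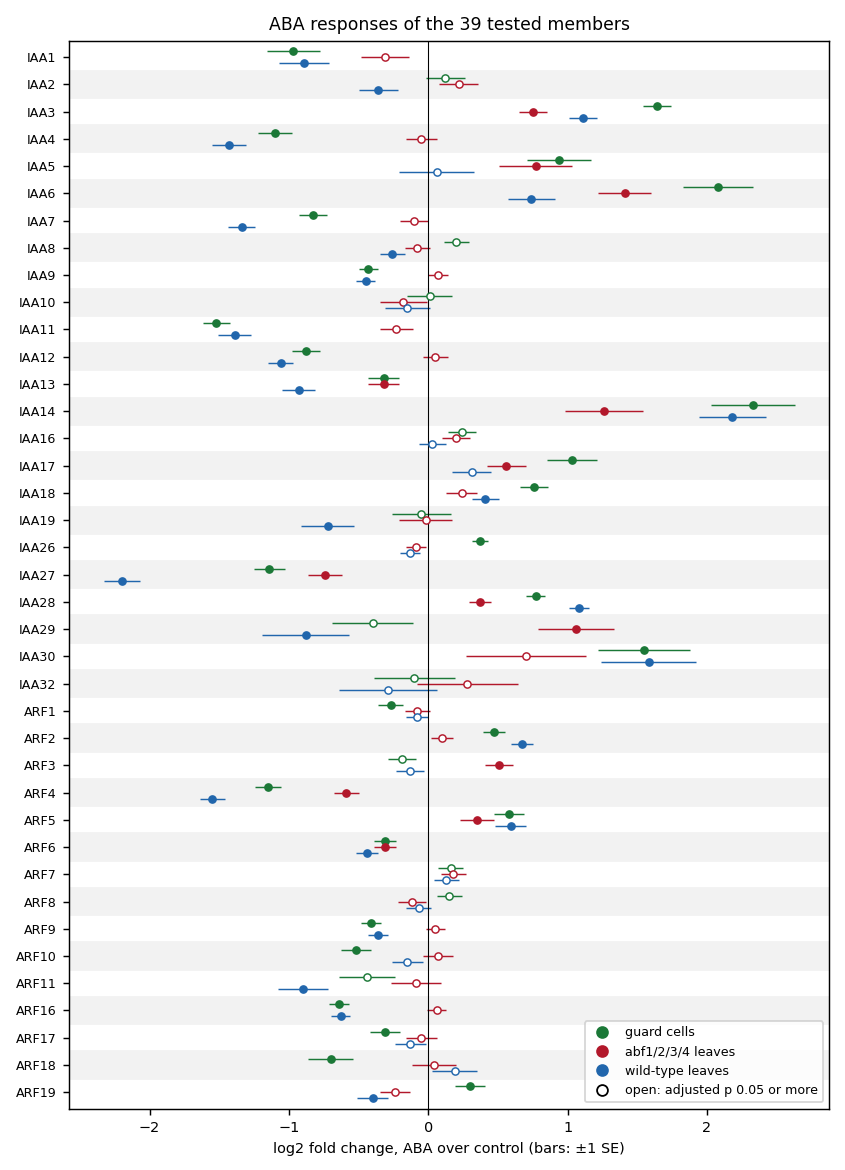
Log2 fold change of ABA over control for the 39 tested members (rows) in guard cells, abf1/2/3/4 leaves and wild-type leaves, with bars of 1 SE and n = 2 libraries a group; filled points passed at an adjusted p under 0.05. IAA14 is at 2.33 in guard cells and 2.18 in wild-type leaves, and IAA27 at -1.14 and -2.20.

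In wild-type leaves 26 of 39 members passed, 8 higher and 18 lower, or 66.7% beside a background of 61.1% of all loci (27.5% higher and 33.7% lower). The median was -0.15 over the members and -0.08 over all loci. Markers of other cell types moved with ABA in these leaves as well: 3 of 5 mesophyll markers fell and none rose, with a summed level of 17300 to 20850 cpm with ABA against 27530 to 28760 cpm at control, and 3 of 4 epidermis markers rose and 1 fell, with 525.7 to 544.0 cpm against 300.1 to 315.9 cpm. Of the 5 guard cell markers 4 fell and 1 rose there (50.42 to 63.52 cpm against 95.54 to 114.1 cpm), of the 9 vasculature markers 5 fell and 2 rose (954.9 to 969.6 cpm against 1122 to 1149 cpm), no marker was at 0, and the part of these shifts in the members' values was not tested. In both wild-type materials, which share no library, 12 members (30.8% of those tested) passed as lower and 8 (20.5%) as higher, beside 22.9% and 21.6% of all loci. IAA1, IAA4, IAA7, IAA9, IAA11, IAA12, IAA13, IAA27, ARF4, ARF6, ARF9 and ARF16 fell in both guard cells and leaves, and IAA3, IAA6, IAA14, IAA18, IAA28, IAA30, ARF2 and ARF5 rose in both. IAA13 did not pass in guard cells without guard cell control replicate 2 or ABA replicate 1, ARF6 in guard cells without control replicate 1, and IAA18 in leaves without wild-type ABA replicate 2. The activator gene ARF19, which acts with ARF7 in lateral root formation, was the 1 gene that passed in opposite directions. It had 25.6 and 25.5 cpm in guard cells with ABA, against 22.4 and 19.2 cpm at control, and 11.7 and 13.8 cpm in wild-type leaves with ABA, against 15.9 and 18.0 cpm at control. Its log2 fold changes were 0.30 ± 0.11 in guard cells (adjusted p = 0.0302) and -0.40 ± 0.11 in wild-type leaves (adjusted p = 0.00738), and with total-count scaling the guard cell value was -0.00 (adjusted p = 0.986). The guard cell call was lost without guard cell control replicate 2 and without either guard cell ABA replicate (0.19 to 0.30), and the leaf call without wild-type control replicate 2 or wild-type ABA replicate 1 (-0.31 and -0.29).

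The activator ARFs gave small values, as did most other ARF genes. With ABA, 0 of the 5 activator genes passed with a change of 2-fold or more in any material. Of the 10 other ARF genes, 1 did so in each wild-type material and 0 in mutant leaves. ARF7 and ARF8 passed in no material, with log2 fold changes between -0.12 and 0.18. ARF5 (MONOPTEROS), which patterns the embryo and the veins, rose by 0.58 ± 0.11 in guard cells (adjusted p = 0.00105) and by 0.59 ± 0.11 in wild-type leaves (adjusted p = 7.67e-04). ARF6 fell by 0.31 and 0.44 on the log2 scale in the same materials (adjusted p = 0.00653 and 5.80e-04).

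The ABA response was weaker or different in abf1/2/3/4 leaves for a group of members led by IAA29, IAA27, IAA4, IAA7 and IAA11. In mutant leaves 13 of 39 members passed, 9 higher and 4 lower, or 33.3% beside a background of 34.4% of all loci (18.9% higher and 15.5% lower). With total-count scaling 7 were higher and 10 lower, beside 2514 and 5868 of all 22341 loci. The median was 0.05 over the members and 0.01 over all loci. Of the 18 genes that fell in wild-type leaves, 4 fell in the mutant (IAA13, IAA27, ARF4 and ARF6), 13 did not pass and IAA29 rose, so 22.2% kept the direction, beside 35.6% of all loci that fell in wild-type leaves. Of the 8 genes that rose in wild-type leaves, IAA3, IAA6, IAA14, IAA28 and ARF5 also rose in the mutant, and IAA18, IAA30 and ARF2 did not pass, so 62.5% kept the direction, beside 47.0% of all loci that rose. The rise of ARF5 in the mutant (0.35, adjusted p = 0.0357) did not hold without mutant control replicate 1 or 2, mutant ABA replicate 1 (0.22) or guard cell ABA replicate 2, with DESeq2, with upper quartile or total-count scaling (0.30 and 0.20) or with only the mutant libraries, and that of IAA28 did not pass in the last of these fits. Summed mesophyll markers stood at 23550 to 26700 cpm in mutant leaves with ABA, against 23110 to 23440 cpm at control, and summed epidermis markers at 324.2 to 350.9 cpm, against 258.7 to 280.7 cpm. A pass in one genotype and not in the other is no test of a difference, so the difference of the ABA responses (mutant minus wild type) was tested directly.

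That difference passed for 16 of 39 members, 14 higher in the mutant and 2 lower, or 41.0% beside a background of 35.1% of all loci (20.1% higher and 15.1% lower). It uses the wild-type libraries a second time, so values of each genotype are given side by side. The median difference was 0.26 over the members and 0.06 over all loci.

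IAA4 had 39.6 and 33.9 cpm in mutant leaves with ABA, against 39.1 and 37.1 cpm at control. The mutant libraries overlapped, at a log2 fold change of -0.05 ± 0.11, where wild-type leaves had -1.43 ± 0.12. The difference was 1.38 ± 0.16 (adjusted p = 7.89e-05, edgeR). IAA7 had 85.6 and 72.5 cpm in mutant leaves with ABA, against 87.6 and 81.5 cpm at control. Here too the mutant libraries overlapped, at -0.10 ± 0.10 beside -1.34 ± 0.10 in wild-type leaves, a difference of 1.25 ± 0.14 (adjusted p = 6.03e-05). IAA11 had 7.22 and 5.84 cpm in mutant leaves with ABA, against 7.91 and 7.57 cpm at control, and its responses of -0.23 ± 0.12 in mutant and -1.39 ± 0.12 in wild-type leaves differed by 1.16 ± 0.17 (adjusted p = 3.91e-04). IAA12 (BODENLOS), the partner of ARF5 in the embryo, had responses of 0.05 ± 0.09 in mutant and -1.06 ± 0.09 in wild-type leaves, a difference of 1.11 ± 0.13 (adjusted p = 8.74e-05).

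IAA27 and ARF4 kept part of their fall in the mutant. IAA27 had 9.16 and 7.96 cpm in mutant leaves with ABA, against 15.0 and 13.8 cpm at control, a log2 fold change of -0.74 ± 0.12 (adjusted p = 7.41e-04). The difference from wild-type leaves was 1.46 ± 0.17 (adjusted p = 9.38e-05). ARF4 had 20.3 and 17.4 cpm in mutant leaves with ABA, against 29.8 and 27.3 cpm at control, a log2 fold change of -0.59 ± 0.09 (adjusted p = 5.51e-04), and differed from wild-type leaves by 0.96 ± 0.13 (adjusted p = 2.02e-04). The ABA libraries of both genes were below the control libraries in both genotypes. IAA13 had 16.7 and 13.8 cpm in mutant leaves with ABA, against 20.4 and 18.0 cpm at control, and ARF6 had 74.0 and 69.8 against 95.1 and 83.6 cpm. Both fell in the mutant (-0.32 ± 0.11 and -0.31 ± 0.08, adjusted p = 0.0490 and 0.0110), IAA13 at the edge of the threshold: it did not pass without any 1 of 8 of the 12 libraries, with -0.20 without mutant ABA replicate 2 and -0.23 without mutant control replicate 1. ARF6 did not pass without those same 2 libraries.

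IAA29, an auxin- and shade-induced Aux/IAA gene, moved in opposite directions. It had 14.6 and 7.84 cpm in mutant leaves with ABA, against 5.85 and 5.07 cpm at control, and 1.96 and 2.31 cpm in wild-type leaves with ABA, against 3.58 and 4.36 cpm at control. The responses were 1.06 ± 0.27 in mutant leaves (adjusted p = 0.0121) and -0.88 ± 0.31 in wild-type leaves (adjusted p = 0.0290), and they differed by 1.94 ± 0.41 (adjusted p = 0.00406). The rise in the mutant was lost without mutant ABA replicate 1 (0.52, adjusted p = 0.165), and the fall in wild-type leaves was lost without wild-type control replicate 2 (-0.73), ABA replicate 1 (-0.78) or ABA replicate 2 (-1.02).

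IAA28 and ARF2 were the members with a lower response in the mutant. IAA28 had 11.7 and 12.0 cpm in mutant leaves with ABA, against 8.95 and 9.32 cpm at control. Its rise of 0.37 ± 0.08 in mutant leaves (adjusted p = 0.00364) was smaller than the 1.08 ± 0.07 of wild-type leaves, by 0.70 ± 0.11 on the log2 scale (adjusted p = 4.96e-04). ARF2 had 350 and 374 cpm in mutant leaves with ABA, against 352 and 322 cpm at control, and the libraries overlapped. The responses of ARF2 were 0.10 ± 0.08 in mutant and 0.67 ± 0.08 in wild-type leaves, with a difference of -0.56 ± 0.11 (adjusted p = 0.00202).

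Other members rose in the mutant as well. IAA6 had 4.54 and 3.72 cpm in mutant leaves with ABA, against 1.71 and 1.42 cpm at control, a log2 fold change of 1.41 ± 0.19 (adjusted p = 2.47e-04). IAA14 had 4.35 and 3.32 cpm in mutant leaves with ABA, against 1.92 and 1.30 cpm at control, and IAA3 had 59.9 and 56.0 cpm against 38.2 and 30.8 cpm. IAA14 rose 2.40-fold (adjusted p = 0.00501), and IAA3 had a log2 fold change of 0.75 ± 0.10 (adjusted p = 2.09e-04). The differences from wild-type leaves did not pass for these 3 genes, with values of 0.67 ± 0.26 for IAA6, -0.91 ± 0.37 for IAA14 and -0.36 ± 0.14 for IAA3 (adjusted p = 0.0679, 0.0803 and 0.0622). IAA5 had 4.07 and 2.20 cpm in mutant leaves with ABA, against 1.99 and 1.79 cpm at control. Its log2 fold change of 0.77 ± 0.26 passed narrowly (adjusted p = 0.0416) and did not pass when any of 11 of the 12 libraries was left out, with 0.22 (adjusted p = 0.540) without mutant ABA replicate 1. IAA14 did not pass without that library either (1.04, adjusted p = 0.0535).

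**Figure D3:**
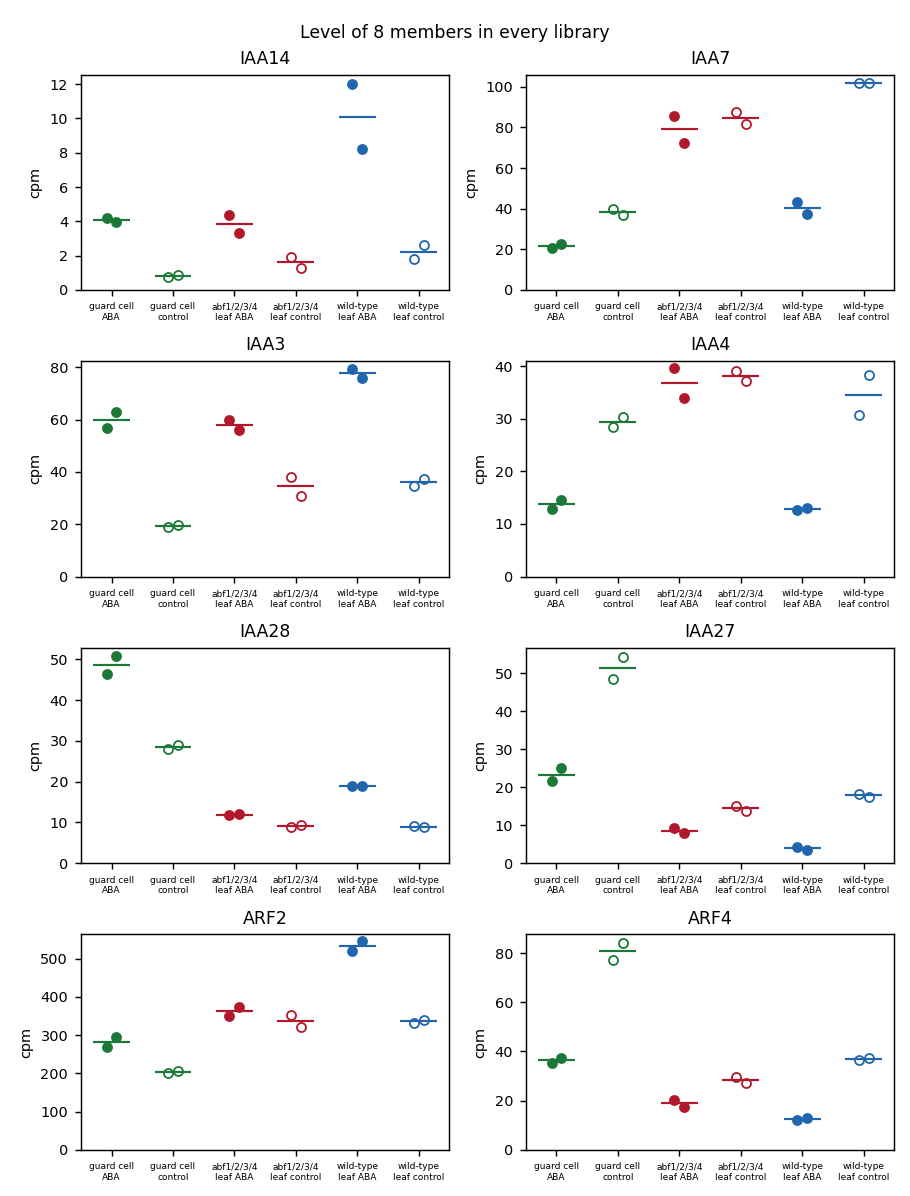
Level in cpm of 8 members in each of the 12 libraries; points are libraries (filled with ABA, open at control), lines are means of 2, and each vertical axis starts at 0. IAA7 and IAA4 are lower with ABA in guard cells and wild-type leaves, while their mutant libraries with and without ABA overlap.

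**Figure D4:**
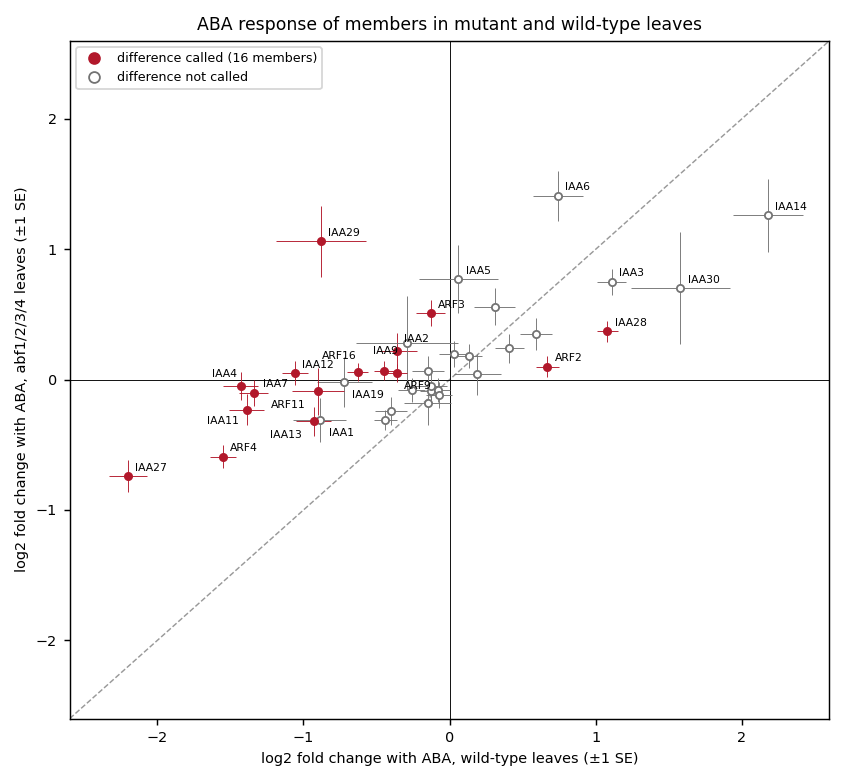
Log2 fold change with ABA in abf1/2/3/4 leaves (vertical) against that in wild-type leaves (horizontal) for the 39 tested members, with bars of 1 SE; the dashed line marks equal responses and filled points are the 16 members whose difference passed. IAA4, IAA7, IAA11 and IAA12 lie near 0 on the vertical axis and below -1 on the horizontal axis.

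Fewer members responded differently in guard cells and in wild-type leaves. The difference of the ABA responses (guard cells minus wild-type leaves) passed for 9 of 39 members, 8 higher and 1 lower, or 23.1% beside a background of 15.0% of all loci (9.87% higher and 5.18% lower). With RLE scaling 6 were higher and 2 lower, and with total-count scaling 4 were higher and 3 lower. Of all 22341 loci, 1610 were higher and 1586 lower with RLE scaling, and 1102 higher and 2349 lower with total-count scaling. IAA6 led with 1.34 ± 0.31 (adjusted p = 0.0164), from responses of 2.08 in guard cells and 0.74 in wild-type leaves. IAA27 followed with 1.06 ± 0.16 (adjusted p = 0.00210), since its fall of 1.14 in guard cells was smaller than that of 2.20 in wild-type leaves. ARF19 differed by 0.70 ± 0.15 (adjusted p = 0.0115), IAA13 by 0.61 ± 0.16 (adjusted p = 0.0282) and IAA3 by 0.53 ± 0.14 (adjusted p = 0.0272). IAA13 had 19.5 and 21.6 cpm in guard cells with ABA, against 24.4 and 26.8 cpm at control, and 9.61 and 8.32 cpm in wild-type leaves with ABA, against 16.7 and 17.3 cpm at control. ARF18 was the gene with the lower response in guard cells, at -0.89 ± 0.23 (adjusted p = 0.0245). It had 7.59 and 8.28 cpm in guard cells with ABA, against 13.8 and 12.0 cpm at control, and 7.87 and 8.80 cpm in wild-type leaves with ABA, against 6.42 and 8.22 cpm at control, where libraries overlapped. The count fell to 3 when guard cell control replicate 1, guard cell control replicate 2 or guard cell ABA replicate 2 was left out and to 4 without wild-type control replicate 2 or wild-type ABA replicate 2, and it was 5 with DESeq2.

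At control, guard cell preparations and wild-type leaves differed in the makeup of both families. Of the 39 members 27 passed, 15 higher and 12 lower in guard cells, or 69.2% beside a background of 62.8% of all loci (30.2% higher and 32.6% lower). With total-count scaling 21 were higher and 7 lower, beside 11350 and 3821 of all 22341 loci. IAA11 had 37.9 and 36.8 cpm in guard cell controls, against 7.61 and 8.39 cpm in wild-type leaf controls, a log2 fold change of 2.22 ± 0.11 (adjusted p = 2.80e-08). IAA26 had 91.6 and 90.6 cpm in guard cell controls, against 24.3 and 25.2 cpm in wild-type leaf controls, a log2 fold change of 1.88 ± 0.07 (adjusted p = 6.56e-09). IAA28 (1.67 ± 0.07, adjusted p = 1.70e-08) and IAA27 (1.52 ± 0.11, adjusted p = 3.71e-07) were higher as well, and so was the degron-less IAA32. IAA32 had 2.57 and 3.2 cpm in guard cell controls, against 0.861 and 1.29 cpm in wild-type leaf controls (1.42 ± 0.30, adjusted p = 0.00179), and 44.2% of its exon bases overlap AT2G01210 on the opposite strand. That neighbour was higher too, with means of 4.91 cpm in guard cell controls and 1.42 cpm in wild-type leaf controls (1.78, adjusted p = 5.65e-05), so the reads of the pair cannot be told apart there.

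Genes of the IAA7, IAA14 and IAA17 clade were lower in guard cell than in wild-type leaf controls. IAA17 had 4.35 and 3.89 cpm in guard cell controls, against 24.4 and 21.6 cpm in wild-type leaf controls, a log2 fold change of -2.48 ± 0.16 (adjusted p = 2.37e-07). IAA6 was lower by 2.58 ± 0.23 on the log2 scale, IAA14 by 1.45 ± 0.31 and IAA7 by 1.41 ± 0.10 (adjusted p = 2.75e-06, 0.00173 and 3.79e-07). IAA16 of the same clade did not pass, with 0.03 ± 0.10 (adjusted p = 0.803). ARF11 had 4.87 and 5.28 cpm in guard cell controls, against 10.1 and 11.1 cpm in wild-type leaf controls, a log2 fold change of -1.06 ± 0.18 (adjusted p = 3.52e-04). IAA8 and ARF3, lower by 0.33 and 0.36 on the log2 scale, stood at 0.05 and 0.03 with total-count scaling, where they did not pass. Guard cell markers, vasculature markers and mesophyll markers all moved with this comparison by the amounts given above, and their part in the members' differences was not tested. With ABA, IAA26 had 118 and 117 cpm in guard cell preparations, against 91.6 and 90.6 cpm at control. It was called higher there (log2 fold change 0.37 ± 0.06), a call lost with total-count scaling.

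Without ABA, mutant and wild-type leaves differed little in these families. Of the 39 members 8 passed, all lower in the mutant, or 20.5% beside a background of 26.5% of all loci (12.1% higher and 14.4% lower). Summed vasculature markers were 753.9 to 763.0 cpm in mutant controls, against 1122 to 1149 cpm in wild-type controls. Summed mesophyll markers were 23110 to 23440 against 27530 to 28760 cpm. Of these lists 3 of 9 and 2 of 5 markers passed as lower and 0 as higher, while 2 of 5 guard cell markers were higher. Their part in the members' values was not tested. IAA6 had 1.71 and 1.42 cpm in mutant controls, against 2.50 and 2.33 cpm in wild-type controls (-0.62 ± 0.20, adjusted p = 0.0380). IAA8 had 59.6 and 53.9 cpm in mutant controls, against 76.6 and 88.2 cpm in wild-type controls (-0.54 ± 0.09, adjusted p = 0.00219). IAA18 had 17.0 and 15.2 cpm in mutant controls, against 21.4 and 23.3 cpm in wild-type controls, IAA26 had 17.9 and 18.6 against 24.3 and 25.2 cpm, and ARF3 had 24.1 and 19.2 against 28.1 and 29.9 cpm. None of these libraries overlapped, and the log2 fold changes were -0.47, -0.44 and -0.42 (adjusted p = 0.00891, 0.00172 and 0.0107). IAA16, ARF4 and ARF9 were lower by 0.36, 0.37 and 0.24 on the log2 scale (adjusted p = 0.0198, 0.0103 and 0.0210). With only the 4 libraries compared the 8 passes became 2. Those of IAA6, IAA16, IAA18, ARF3, ARF4 and ARF9 did not hold without wild-type control replicate 2 or without mutant control replicate 2. With total-count scaling 3 members were higher and 3 lower, beside 4789 and 1675 of all 22341 loci.

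Small RNA targets among the ARF genes are given by the small RNA that acts on them, with the sites of the miR160 and miR167 targets. The mature miRNAs and sites were read from RefSeq TAIR10.1; capitals in a miRNA mark its seed, bases 2 to 8, and capitals in a site mark bases that do not pair with the miRNA by Watson-Crick rules. MIR160a, MIR160b and MIR160c carry the same mature sequence, as do MIR167a and MIR167b, and each site lies in a coding exon.
miR160a: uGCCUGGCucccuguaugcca
ARF10: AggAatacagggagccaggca
ARF16: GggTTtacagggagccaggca
ARF17: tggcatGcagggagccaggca
miR167a: uGAAGCUGccagcaugaucua
ARF6: GagatcaGgctggcagcttGT
ARF8: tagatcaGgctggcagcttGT
The sites stand at chr2:12115741-12115761 (plus strand) for ARF10, chr4:14704141-14704161 (minus strand) for ARF16, chr1:29274189-29274209 (plus strand) for ARF17, chr1:10686478-10686498 (minus strand) for ARF6 and chr5:14633841-14633861 (plus strand) for ARF8. The miR160 targets ARF10, ARF16 and ARF17 passed as lower in guard cells with ABA, ARF17 narrowly. Of the 10 ARF genes outside the activators, these 3 included, 7 passed as lower there, beside 28.5% of all loci. ARF10 had 14.3 and 12.4 cpm in guard cells with ABA, against 20.3 and 18.2 cpm at control (-0.52 ± 0.11, adjusted p = 0.00170). ARF16 had 12.2 and 12.0 cpm in guard cells with ABA, against 19.0 and 18.8 cpm at control (-0.64 ± 0.07, adjusted p = 1.97e-05), and ARF17 had 19.5 and 16.4 against 21.7 and 22.9 cpm (-0.31 ± 0.11, adjusted p = 0.0290). ARF17 did not pass without guard cell control replicate 1 (-0.34), control replicate 2 (-0.27) or ABA replicate 2 (-0.19). In wild-type leaves ARF16 alone of the 3 passed (-0.63 ± 0.07, adjusted p = 1.20e-05), and none of the 3 passed in mutant leaves, where values were between -0.05 and 0.07. The miR167 targets parted, since ARF6 fell in all 3 materials (-0.31, -0.31 and -0.44 in guard cells, mutant and wild-type leaves) and ARF8 passed in none.

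The 3 ARF genes on which TAS3 small RNAs act did not move as 1 group. ARF2 rose and ARF4 fell with ABA in both wild-type materials, while ARF3 (ETTIN) did not pass in guard cells (-0.19 ± 0.10, adjusted p = 0.132) or wild-type leaves (-0.13 ± 0.10, adjusted p = 0.268). ARF3 rose in mutant leaves, with 31.0 and 30.7 cpm with ABA, against 24.1 and 19.2 cpm at control (0.51 ± 0.10, adjusted p = 0.00256). The TAS3 precursor (AT3G17185), looked up after the values of the ARF genes had been seen, had 1.44 and 1.38 cpm in guard cells with ABA, against 4.78 and 6.48 cpm at control. It had 3.68 and 2.48 cpm in mutant leaves with ABA, against 2.33 and 2.46 cpm at control, and 0.142 and 0.365 cpm in wild-type leaves with ABA, against 1.89 and 1.81 cpm at control. TAS3 fell by 2.00 ± 0.26 on the log2 scale in guard cells (adjusted p = 6.81e-05) and by 2.75 ± 0.36 in wild-type leaves (adjusted p = 5.26e-05), did not pass in mutant leaves (0.39 ± 0.25, adjusted p = 0.267), and its mutant and wild-type responses differed by 3.14 ± 0.45 (adjusted p = 3.15e-04). The wild-type leaf libraries held 4 and 15 counts of TAS3 with ABA, against 68 and 73 at control. Its fold change in wild-type leaves and the difference between genotypes thus rest on few counts. Poly(A) libraries measure the precursor, not the small RNAs.

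The rest of the auxin pathway was followed in 7 lists with 66 genes, from the synthesis of auxin to its targets. SAUR genes, small auxin-up RNA genes that promote cell expansion, were mostly lower with ABA in the wild-type materials. Of 12 tested SAUR genes, 9 fell in guard cells and 10 in wild-type leaves, beside 28.5% and 33.7% of all loci, and none rose (1 in guard cells without the low-count filter). In guard cells SAUR23 did not pass when any guard cell library was left out (-0.90 to -1.39), nor SAUR22 without either ABA replicate (-2.19 and -2.29). SAUR22 did not pass in wild-type leaves without ABA replicate 1 or control replicate 2 (-1.22 and -1.35). In mutant leaves 4 rose and 1, SAUR6, fell, beside 18.9% and 15.5% of all loci; the number that rose was 2 to 6 over the alternative settings, and SAUR6 did not pass without mutant ABA replicate 2 or mutant control replicate 1 (-0.54 and -0.53). The median log2 fold changes were -2.19 in guard cells, 0.39 in mutant leaves and -2.76 in wild-type leaves, or -2.20 and -2.44 in guard cells and wild-type leaves with genes of 3 or fewer counts set to their bound. SAUR16 had 1.93 and 0.946 cpm in guard cells with ABA, against 23.3 and 22.0 cpm at control. It had 58.1 and 44.6 cpm in mutant leaves with ABA, against 44.7 and 39.2 cpm at control, and 4.52 and 1.92 cpm in wild-type leaves with ABA, against 53.4 and 55.5 cpm at control. The log2 fold changes of SAUR16 were -3.96 ± 0.34, 0.29 ± 0.23 and -4.15 ± 0.29 (adjusted p = 2.29e-06, 0.353 and 3.54e-07). SAUR20, SAUR21 and SAUR24 moved in like manner (-3.30, -3.47 and -2.26 in guard cells, 0.75, 0.89 and 0.80 in mutant leaves, -3.2, -3.90 and -3.03 in wild-type leaves), but they are near-identical copies whose reads the counting could have split, so the single values are uncertain. Without mutant ABA replicate 1, SAUR20 and SAUR21 did not pass in mutant leaves (0.51 and 0.60).

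Most auxin transport genes were lower with ABA in the wild-type materials and did not pass in mutant leaves. Of 13 tested, 12 fell in guard cells and none rose, 2 fell and 1 rose in mutant leaves, and 9 fell and 1 rose in wild-type leaves, beside 28.5%, 15.5% and 33.7% of all loci called lower. The medians were -0.68 in guard cells, 0.07 in mutant leaves and -1.02 in wild-type leaves. LAX3, an influx carrier, had 2.04 and 1.46 cpm in guard cells with ABA, against 11.3 and 10.3 cpm at control, with log2 fold changes of -2.63 ± 0.17, -1.23 ± 0.15 and -2.89 ± 0.18 in guard cells, mutant and wild-type leaves (adjusted p = 2.00e-07, 1.60e-04 and 1.69e-07). The efflux carrier gene PIN4 had 15.6 and 14.6 cpm in guard cells with ABA, against 68.0 and 59.2 cpm at control, with log2 fold changes of -2.07 ± 0.09, -0.34 ± 0.08 and -2.50 ± 0.08 (adjusted p = 7.80e-09, 0.00701 and 2.05e-09), the mutant one not passing without mutant ABA replicate 2 (-0.29). The transporter gene ABCB19 fell by 2.07 in guard cells and 2.20 in wild-type leaves (adjusted p = 2.09e-07 and 1.03e-07). PIN3 rose in mutant leaves (0.38 ± 0.08, adjusted p = 0.00429) and fell in wild-type leaves (-1.38 ± 0.08, adjusted p = 1.29e-07).

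Some genes that inactivate auxin by conjugation and some that release it from conjugates rose. GH3.6, an enzyme gene that joins auxin to amino acids, had 19.9 and 23.3 cpm in guard cells with ABA, against 2.39 and 2.48 cpm at control. It had 6.36 and 6.48 cpm in mutant leaves with ABA, against 2.06 and 2.35 cpm at control, and 67.8 and 57.8 cpm in wild-type leaves with ABA, against 1.92 and 1.83 cpm at control. GH3.6 rose in all 3 materials, by 3.15 ± 0.12, 1.54 ± 0.14 and 5.06 ± 0.13 on the log2 scale (adjusted p = 5.69e-09, 2.02e-05 and 2.91e-10). GH3.5 rose by 3.16, 2.03 and 3.19 in the same order (adjusted p = 1.61e-07, 1.80e-05 and 4.34e-08), and GH3.2 by 1.30 in guard cells and 2.41 in wild-type leaves (adjusted p = 0.00486 and 2.85e-05). In this list of 6 tested genes, 3 rose and 1 fell in guard cells, 4 rose in mutant leaves, and 5 rose and 1 fell in wild-type leaves, beside 29.0%, 18.9% and 27.5% of all loci called higher. Without wild-type ABA replicate 2, 3 rose in wild-type leaves. GH3.9 was the one that fell, with -0.75 in guard cells and -1.46 in wild-type leaves, and its guard cell fall was lost without any 1 of the 4 guard cell libraries (-0.61 to -0.90). It was called higher in mutant leaves (0.63, adjusted p = 0.0439, edgeR), a narrow pass that most alternatives lost. The pass did not hold with DESeq2, with upper quartile or total-count scaling (0.58 and 0.47) or with only the mutant libraries. Nor did it hold without mutant ABA replicate 1 (0.29) or mutant control replicate 2 (0.46). It was also lost when any guard cell library or either wild-type control library was left out. Of the 7 amidohydrolase genes, 4 rose in each material, ILL5, ILL6, IAR3 and ILR1, and ILL2 fell in guard cells, where it did not pass without control replicate 2 or ABA replicate 2 (-0.24 and -0.29). IAR3 had 143 and 133 cpm in guard cells with ABA, against 48.7 and 43.8 cpm at control, with log2 fold changes of 1.57, 0.90 and 1.54 in guard cells, mutant and wild-type leaves (adjusted p = 8.62e-06, 0.00139 and 8.23e-06). ILL5 rose by 3.97, 5.10 and 5.88 (adjusted p = 3.07e-05, 2.87e-05 and 2.65e-06), and ILL6 by 2.08, 1.30 and 1.62 (adjusted p = 4.53e-04, 0.0163 and 0.00210), where the mutant values of ILL6 and ILR1 did not pass without mutant ABA replicate 2 (1.19 and 0.45), which left 2 of the 4.

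Synthesis genes were mixed. Of 8 tested, 2 rose and 4 fell in guard cells and in wild-type leaves, and 2 rose and 2 fell in mutant leaves. These were 75.0% called in guard cells and in wild-type leaves, beside 57.5% and 61.1% of all loci. In mutant leaves 50.0% were called, beside 34.4% of all loci. Without wild-type control replicate 2 the 4 falls in wild-type leaves became 2, since YUC2 and YUC5 did not pass, and the same count came from DESeq2. In mutant leaves YUC8 (1.02) did not pass without ABA replicate 1 (0.55) or control replicate 2 (0.91), nor TAR2 (-0.65) without ABA replicate 2 (-0.55), and in guard cells YUC4 did not pass without control replicate 2. TAA1, which makes the indole-3-pyruvate precursor of auxin, had 1.04 and 0.946 cpm in guard cells with ABA, against 4.50 and 4.91 cpm at control, and fell by 2.24, 1.44 and 2.21 on the log2 scale in guard cells, mutant and wild-type leaves (adjusted p = 6.52e-06, 2.50e-04 and 1.82e-06). YUC9, for a flavin monooxygenase of the last step, rested on few counts, 32 in each guard cell library with ABA against 7 in each control library, and 25 and 21 in wild-type leaves with ABA against 5 and 2 at control. YUC5 had 0 and 1 counts in guard cells with ABA, against 23 and 20 at control, and YUC4 had 8 and 10 counts with ABA, against 2 and 0 at control. All 3 passed in guard cells (adjusted p = 0.00164 for YUC9, 0.00189 for YUC5 and 0.00632 for YUC4), and fitted fold changes are left out at such counts.

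Receptor and corepressor genes other than AFB1 gave log2 fold changes under 1 in size, and their counts depended on the settings. Of 8 receptor and ubiquitin ligase genes, 1 rose and 2 fell in guard cells and in mutant leaves, and 2 rose and 2 fell in wild-type leaves. These were 37.5% called in guard cells and mutant leaves and 50.0% in wild-type leaves, beside 57.5%, 34.4% and 61.1% of all loci. With total-count scaling none rose and 6 fell in guard cells, TIR1 and ASK1 among them (-0.22 and -0.20, where the values were 0.09 and 0.10), and the median moved to -0.33 where it was -0.02. Of all 22341 loci, 3881 rose and 10860 fell in guard cells with that scaling. In mutant leaves the 3 calls, AFB3 (0.23), AFB2 (-0.20) and ASK1 (-0.25), all failed without mutant ABA replicate 2 or mutant control replicate 2, where AFB3 stood at 0.22 and 0.12, and with only the mutant libraries. TIR1, the founding auxin receptor gene, passed in none of the materials (0.09, 0.15 and -0.02 in guard cells, mutant and wild-type leaves). AFB1 fell in wild-type leaves, with 2.78 and 1.61 cpm with ABA, against 12.6 and 14.8 cpm at control (-2.69 ± 0.20, adjusted p = 6.12e-07), and in guard cells (-0.68 ± 0.17, adjusted p = 0.00600). AFB4 rose and AFB5 fell in both wild-type materials, by 0.46 and 0.48 on the log2 scale in guard cells (adjusted p = 1.53e-04 and 1.61e-04), but AFB4 did not pass in guard cells with total-count scaling (0.16).

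Of the 5 TOPLESS corepressor genes, through which Aux/IAA proteins repress, TPR3 fell in guard cells and wild-type leaves (-0.82 and -0.50, adjusted p = 6.15e-05 and 8.27e-04), TPR4 rose in wild-type leaves (0.64, adjusted p = 4.01e-06), and TPR1 and TPR4 rose in mutant leaves (0.33 and 0.25, adjusted p = 0.00127 and 0.0103). The other values in guard cells changed sign with the scaling. TPL, TPR1 and TPR2 stood at 0.04, 0.03 and 0.05 without a pass, and with total-count scaling they passed as lower (-0.26, -0.27 and -0.26), so that 4 of the 5 were then called lower. Of all 22341 loci, 10860 were called lower in guard cells with that scaling. TPR4 passed narrowly in guard cells (0.17, adjusted p = 0.0383), stood at -0.14 with total-count scaling and lost its pass without any 1 of the 4 guard cell libraries. In mutant leaves TPR4 did not pass without mutant ABA replicate 1 or mutant control replicate 2 (0.23 and 0.21), and neither TPR1 nor TPR4 passed with only the mutant libraries.

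**Figure D5:**
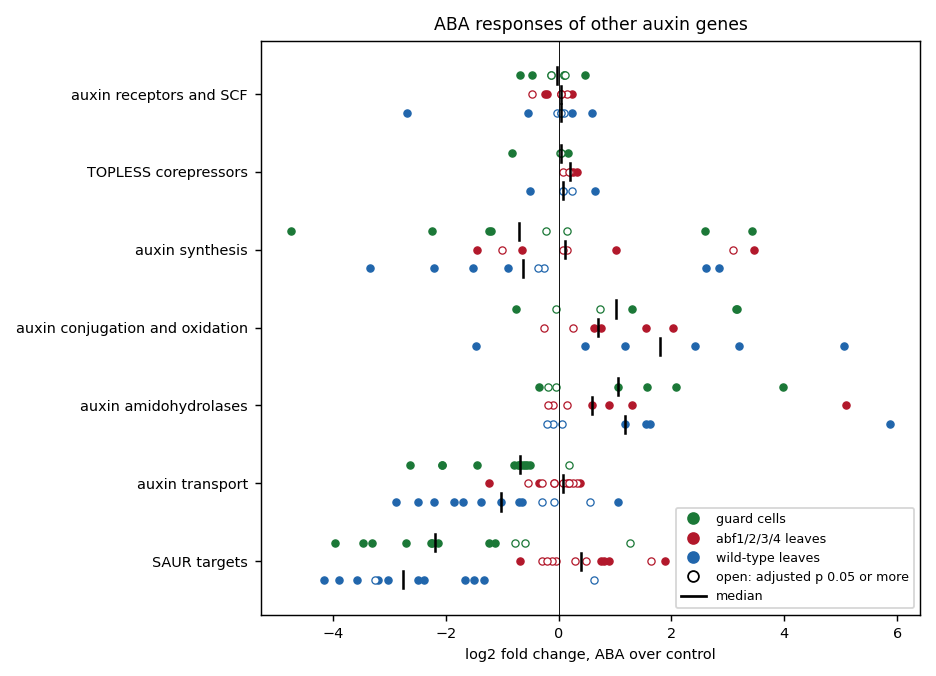
Log2 fold change of ABA over control for the tested genes of 7 auxin lists (rows) in guard cells, abf1/2/3/4 leaves and wild-type leaves; points are genes, filled where the adjusted p was under 0.05, and black ticks are medians. The SAUR medians stand at -2.19, 0.39 and -2.76, and those of the transport list at -0.68, 0.07 and -1.02.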

How the data were processed

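The authors deposited unnormalized counts of reads, 1 row per locus and 1 column per library, in whole numbers with unequal totals. Per the submitters' processing notes, Trim Galore 0.6.5, cutadapt, FastQC, SAMtools, featureCounts and DESeq2 1.26.0 were named together with the genome build TAIR10. The aligner, the annotation and the use of strand are not given in the sources used here. Libraries were TruSeq V2 mRNA preparations of poly(A) RNA, per the labels' protocols, a kit that does not mark strand.

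Counts were analysed with edgeR 4.0.16 in R 4.3.3. Loci were filtered with filterByExpr (minimum count 10), which left 22341, and libraries were scaled by TMM. A single quasi-likelihood model described the 12 libraries by their 6 groups, with no term for replicate number and 6 residual degrees of freedom. F-tests were two-sided, p-values were adjusted by Benjamini and Hochberg's method over the 22341 loci of each contrast, and each standard error was obtained from the fold change and its F statistic. The 7 contrasts were ABA against control in each of the 3 materials, the differences of the ABA response (guard cells minus wild-type leaves, mutant minus wild-type leaves), and guard cells and mutant leaves against wild-type leaves at control. Tests give the spread between replicates only.

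The 43 loci, the 12 gene lists with 93 genes and all tests were chosen with earlier results of these data known. Lists were described by counts and medians, with no set test. Values in every library are given, per contrast, for up to 5 rising and 5 falling called members ranked by absolute log2 fold change, if their libraries were fully apart and the mean of the higher group reached 1 cpm, and up to 3 called genes per list are named, with TIR1, the miRNA targets and TAS3 added after their values were seen. Exon lengths, overlaps and sequences come from RefSeq TAIR10.1, whose identifiers matched all 43 members and 93 list genes. No 50-base stretch of a member's exons recurs elsewhere in the genome except in IAA13 (0.405% of its stretches). Alternatives tried were other scalings (total counts alone, RLE, upper quartile), all loci with any count, DESeq2 1.42.0, a fit to the compared libraries alone, a replicate block, and omission of each library. The code was tested on simulated data.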

Additional observations from a re-analysis of the deposited data

Results flagged for a closer look

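The ABA response differed between mutant and wild-type leaves for 16 members by edgeR's test of the difference itself (mutant minus wild type, log2). The differences were 1.94 for IAA29, 1.46 for IAA27, 1.38 for IAA4, 1.25 for IAA7, 1.16 for IAA11, 1.11 for IAA12, 0.61 for IAA13, 0.59 for IAA2 and 0.52 for IAA9 among the Aux/IAA genes with a higher response in the mutant. Among the ARF genes they were 0.96 for ARF4, 0.81 for ARF11, 0.68 for ARF16, 0.64 for ARF3 and 0.41 for ARF9. IAA28 and ARF2 had a lower response in the mutant, at -0.70 and -0.56. IAA2 lost its call when any of 9 of the 12 libraries was left out, ARF11 with any of 5 and IAA13 with either of 2.

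The ABA response differed between guard cells and wild-type leaves for 9 members (guard cells minus wild-type leaves, log2). The differences were 1.34 for IAA6, 1.06 for IAA27, 0.70 for ARF19, 0.61 for IAA13, 0.53 for IAA3, 0.51 for IAA7, 0.50 for IAA26, 0.47 for IAA8 and -0.89 for ARF18. IAA26 and IAA27 kept the call without any 1 library, and the other 7 lost it without at least 2 of the 12. Groups of 2 libraries allow no test for a single library that stands apart.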

How the results depend on the processing

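Of 127 results called among 273 member tests, 126 kept their call with a replicate block, 127 without the low-count filter, 122 with RLE and 122 with upper quartile scaling, 112 with DESeq2, 110 with only the libraries compared and 108 with total-count scaling. Total-count scaling moved the median of all loci by -0.30 for ABA in guard cells, -0.13 in wild-type and -0.15 in mutant leaves, -0.17 for the guard cell difference, 0.38 for guard cells and 0.13 for mutant leaves against wild-type leaves at control; upper quartile scaling moved it by -0.11 for ABA in guard cells and by 0.13 for guard cells against leaves. Total-count scaling turned 4 values round: ARF19 with ABA in guard cells (-0.00, adjusted p = 0.986) and, in guard cells against wild-type leaves at control, IAA8 (0.05), ARF3 (0.03) and IAA12 (0.25, adjusted p = 0.0279, from -0.14 without a call). The cause was not tested. Counts of called members that moved were 7 for ABA in mutant leaves and 2 for mutant against wild-type leaves at control with only the libraries compared, and 5 with DESeq2 for the guard cell difference. Leaving out 1 library at a time gave 24 to 31 called members for ABA in guard cells, 22 to 27 in wild-type leaves and 9 to 12 in mutant leaves, 3 to 11 for the guard cell difference, 13 to 18 for the genotype difference, 25 to 28 for guard cells and 2 to 11 for mutant leaves against wild-type leaves at control; where this leaves 1 library in a group, that library is assumed to vary like the others. Replicate numbers are shared by the groups, but the labels do not tie them to a plant or day and deviations of same-numbered libraries correlated at -0.167 to 0.238, so they were not used as pairs; with the replicate block the counts were 28, 27, 12, 10, 16, 27 and 9, where the fit without it gave 28, 26, 13, 9, 16, 27 and 8 (ABA in guard cells, wild-type and mutant leaves, the guard cell and genotype differences, and both control comparisons). IAA20, IAA31, IAA33 and IAA34 had too few counts for a test, and low depth and absent expression cannot be told apart.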

Other observations

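Outside the auxin genes, the markers used to check the labels also moved with ABA. FAMA, a transcription factor gene of the guard cell lineage, had 10.4 and 11.1 cpm in guard cells with ABA, against 152 and 153 cpm at control, a log2 fold change of -3.83 ± 0.15 (adjusted p = 6.16e-09 by edgeR). MYB60 and HT1 fell by 4.32 and 3.15 on the log2 scale in the same preparations (adjusted p = 2.22e-10 and 6.85e-10). FAMA had 30.6 and 32.6 cpm in mutant leaves with ABA, against 26.1 and 20.5 cpm at control, and 7.55 and 7.03 cpm in wild-type leaves with ABA, against 13.5 and 18.7 cpm at control. The FAMA value of wild-type leaves was -1.15 ± 0.15 (adjusted p = 6.17e-05).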
